A study of Mus musculus with 16 samples.

Results

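Whole RNA of mature mouse sperm was compared with the size fraction of 30-40 nt excised from a gel, to ask which sequences of that length were more or less frequent after the gel step in both diets. Its members were all sequences of 30-40 nt in 4 libraries, 983351 of the 2251023 distinct sequences of any length, and each read count was scaled to 1000000 of the 30-40 nt reads of its library (RPM). The 4 libraries are a part of the 16 samples of a series on sperm RNA, embryos injected with it and their offspring. All sperm came from the cauda epididymis of C57BL/6 males bought at 5 weeks of age and given a normal diet (ND) or a high-fat diet (HFD). They were washed with detergent to lyse somatic cells before Trizol extraction. Whole sperm RNA went straight into a small RNA library, 1 for each diet. The gel fraction, again 1 library for each diet, was total sperm RNA run on a denaturing urea gel, from which the piece at 30-40 nt was excised and extracted. How many males gave each RNA, and whether both preparations of a diet came from the same RNA, is not stated in the labels. The diets served as the 2 replicates of each preparation, so the spread between replicates includes any effect of diet.

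Sperm carry little messenger RNA but many short fragments of transfer RNA (tRNA) and ribosomal RNA (rRNA). A tRNA fragment of this length from the 5′ side usually ends in or near the anticodon loop, which is where ribonucleases cut many tRNAs. The 5′ side of a tRNA holds the D arm, whose gene letters are called the A box, and the 3′ side holds the T arm, whose letters are called the B box, followed by the tail CCA that is added to mature tRNA. In sperm, the fragments from the 5′ side are the better known ones, among them those of glycine and valine tRNAs.

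The differences are shown first in where the reads of a few families end, a family being all sequences that share their first 15 bases. The next sequences are the main reads of 3 such families, which begin as the tRNAs for valine and glycine and the 28S rRNA do, and were named from those beginnings because no reference of tRNA or rRNA was used here. Capitals mark the bases from position 30 on, so that the ends can be compared.
Valine, 31 nt: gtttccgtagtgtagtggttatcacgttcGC
Valine, 33 nt: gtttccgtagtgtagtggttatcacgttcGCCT
Valine, 34 nt: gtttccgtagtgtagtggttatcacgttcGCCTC
Glycine, 30 nt: gcattggtggttcagtggtagaattctcgC
Glycine, 32 nt: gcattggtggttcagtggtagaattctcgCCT
Glycine, 34 nt: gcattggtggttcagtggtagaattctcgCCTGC
28S, 36 nt: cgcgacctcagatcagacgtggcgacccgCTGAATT
28S, 40 nt: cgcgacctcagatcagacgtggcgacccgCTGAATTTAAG

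Each library held 9517720 to 10605324 reads, of which 47.2% to 76.0% were 30-40 nt long, leaving 4501619 to 7884746 reads for the comparison. Whole sperm RNA held 462062 (ND) and 557101 (HFD) distinct sequences of that length, and the gel fraction 77536 and 78625. At this depth a sequence without a read can stand at up to 0.666 RPM in whole sperm RNA and 0.443 in the gel fraction (3 reads, which covers the error of counting and not that of PCR copies). Reads that held at least 1 of 5 sites kept in bacterial 16S rRNA stood at 2.60 and 4.22 RPM in whole ND and HFD, and at 619 and 36569 in the gel fraction of ND and HFD. By 4 of these sites, without the 1 chosen after the data were seen, they stood at 1.80, 4.00, 274 and 307 RPM. Of the sequences tested below, 3 held such a site and all 3 were called enriched, beside 24.0% of all sequences tested. These 3 entered the test through the gel libraries alone and had to differ, so their count is a description only. With so few such reads in whole sperm RNA, none could be among the 373 sequences described below. Their part in the results was not tested. The label of mature sperm could not be checked against marker genes, since the tables list short sequences without gene names.

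The balance of sequences within the same window of length differed between the preparations. Of the 983351 sequences, 6998 reached 10 RPM in at least 2 of the 4 libraries and were tested with edgeR's quasi-likelihood test. A sequence was called enriched or lost when its adjusted p was under 0.05 and its gel over whole ratio was at least 2, or at most 0.5, in each diet. By this rule 1678 sequences were enriched (24.0%) and 4695 were lost (67.1%). Most had entered the test through 1 side alone, 4817 through both whole libraries and 1724 through both gel libraries, and had to differ, so these totals are given as a description only. The 373 sequences with at least 10 RPM in all 4 libraries were not chosen through 1 side. Among them 53 were enriched (14.2%), 74 were lost (19.8%) and 246 were neither. These counts depended on scaling and on the filter. With median of ratios factors, the scaling of DESeq2, in the edgeR fit they were 44 and 158, with DESeq2 itself 56 and 179, and with no filter beyond a read in 2 libraries 8 and 5.

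All of these calls needed both whole sperm libraries. Without whole ND, 0 of the 6998 sequences passed, with a lowest edgeR adjusted p of 0.0676 and 4046 sequences at an unadjusted p under 0.05. Without whole HFD, 0 passed as well, with a lowest adjusted p of 0.0521 and 3551 at an unadjusted p under 0.05. In both cases the lone whole library was assumed to vary as the gel libraries do. Leaving out either gel library left 1692 or 1742 sequences enriched and 4797 or 4636 lost.

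The ratios of the 373 sequences were alike in both diets. Across sequences, which are not independent, Pearson's r between the log2 gel over whole ratio in ND and in HFD was 0.93 and Spearman's rho was 0.90. Both ratios had the same sign in 293 sequences (78.6%), and 6 sequences differed by at least 2 times in opposite directions. The median log2 ratio was 0.08 in ND and -0.89 in HFD, so the HFD ratios lay lower as a whole. No pair of libraries is shared between the diets, but all ratios within a diet share the depth and composition of the same 2 libraries.

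**Figure D1:**
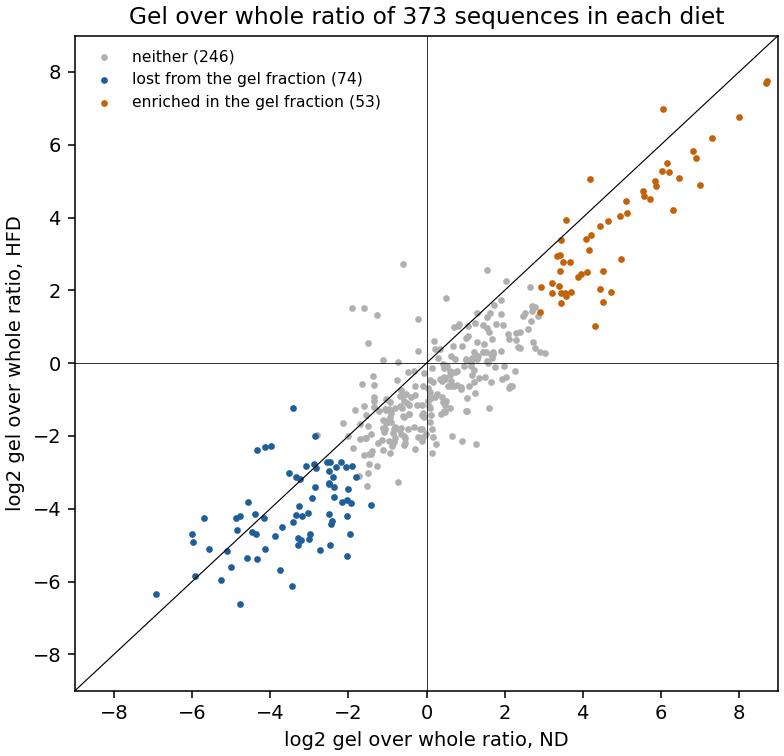
Each point is 1 of 373 sequences with at least 10 RPM in all 4 libraries, with its log2 gel over whole ratio in ND on the x axis and in HFD on the y axis. The 53 enriched (orange) and 74 lost (blue) sequences lie along the line of equal ratios, mostly below it.

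The family that begins as valine tRNA dominated the gel fraction. Its 33-nt sequence stood at 4616 RPM in whole ND, 4645 in whole HFD, 300585 in the ND gel fraction and 181830 in the HFD gel fraction. Both gel libraries were far above both whole libraries, with ratios of 65.1 in ND and 39.1 in HFD (log2 difference 5.70, SE 1.21, edgeR adjusted p = 3.12e-06). This 1 sequence made up 30.1% of the 30-40 nt reads of the ND gel fraction and 18.2% of those of the HFD gel fraction. The family as a whole had 18662, 22771, 346367 and 210614 RPM in whole ND, whole HFD, gel ND and gel HFD (ratios 18.6 and 9.25, edgeR adjusted p = 2.60e-06).

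Sequences of the valine family that ended 1 or 2 bases elsewhere did not share that ratio. At 34 nt, with 1 more base, the values were 4984, 4419, 6756 and 4001 RPM in whole ND, whole HFD, gel ND and gel HFD, which overlapped between the preparations (ratios 1.36 and 0.906, edgeR adjusted p = 0.859). At 31 nt they were 1519, 2469, 368 and 62.9 RPM, so the shorter end was lost (ratios 0.242 and 0.0255, edgeR adjusted p = 0.00802), though not with TMM factors, a trimmed mean scaling of edgeR (adjusted p = 0.0561) or without the HFD gel library (adjusted p = 0.0835). The 33-nt end held 24.7% and 20.4% of the family in whole ND and HFD and 86.8% and 86.3% in the gel fraction of ND and HFD. At 32 nt the sequence was not called (ratios 6.03 and 1.93, edgeR adjusted p = 0.103). The 35-nt end was lost (ratios 0.178 and 0.128, edgeR adjusted p = 0.0234), though not with all reads as library size (edgeR adjusted p = 0.0898). The 36-nt end was enriched (ratios 9.30 and 3.79, edgeR adjusted p = 0.0268), though not without the ND gel library. The 35-nt and 36-nt sequences have G at base 34, where the 34-nt one has C, so they are not longer ends of it. Whole sperm RNA thus held this family spread over sequences of 31 to 36 nt, while the gel fraction held it mainly at 33 nt.

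In the family that begins as glycine tRNA, the short ends were enriched and the long ends were lost. At 32 nt, whole ND and HFD had 94.5 and 227 RPM and the gel fraction 38958 and 47058, with ratios of 412 and 207 (log2 difference 8.06, SE 1.39, edgeR adjusted p = 1.04e-08). At 30 nt the values were 682, 1032, 80904 and 50944 RPM in whole ND, whole HFD, gel ND and gel HFD (ratios 119 and 49.4). Both ends were far above the spread between the diets. At 34 nt, 2 bases past the 32-nt end, the order was turned around, with 6219 and 18001 RPM in whole ND and HFD and 1534 and 1649 in the gel fraction (ratios 0.247 and 0.0916, edgeR adjusted p = 0.0104, and 0.0559 without the ND gel library). At 35 nt the values were 2850, 9390, 291 and 338 RPM (ratios 0.102 and 0.0360, edgeR adjusted p = 5.33e-04).

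The glycine family therefore peaked at different ends in the preparations. In whole sperm RNA the 34-nt end held 59.3% (ND) and 59.4% (HFD) of it and the 35-nt end 27.2% and 31.0%. In the gel fraction the 30-nt end held 55.8% (ND) and 41.0% (HFD) and the 32-nt end 26.9% and 37.9%, while the 34-nt end held 1.06% and 1.33%. As a sum the family had 10480, 30284, 144911 and 124107 RPM in whole ND, whole HFD, gel ND and gel HFD (ratios 13.8 and 4.10, edgeR adjusted p = 7.83e-04). The mean length of its reads was 33.9 nt in whole ND, 34.1 nt in whole HFD, 30.8 nt in the ND gel fraction and 31.1 nt in the HFD gel fraction.

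Reads that begin as the 28S rRNA does, the large-subunit rRNA of the ribosome, were enriched at 34, 35, 36, 39 and 40 nt and not called at 30, 31, 32, 33, 37 and 38 nt. The 36-nt sequence had 864 and 2811 RPM in whole ND and HFD and 15610 and 93453 in the gel fraction of ND and HFD (ratios 18.1 and 33.2, log2 difference 4.89, SE 1.19, edgeR adjusted p = 5.49e-05). The 40-nt sequence had 89.1, 52.9, 5953 and 6723 RPM in whole ND, whole HFD, gel ND and gel HFD (ratios 66.8 and 127, edgeR adjusted p = 2.27e-06). In between, the 37-nt sequence had 872, 2246, 2533 and 4391 RPM and was the sequence just outside the limit on the upper side (ratios 2.91 and 1.95, edgeR adjusted p = 0.301). The short ends had ratios of 0.418 and 2.51 in ND and HFD at 30 nt, 0.320 and 0.668 at 31 nt, 0.862 and 1.27 at 32 nt and 2.37 and 2.17 at 33 nt. The gel libraries differed from each other by more than in the tRNA families, the whole family having 48040 RPM in ND and 154955 in HFD against 5472 and 11182 in whole sperm RNA.

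**Figure D2:**
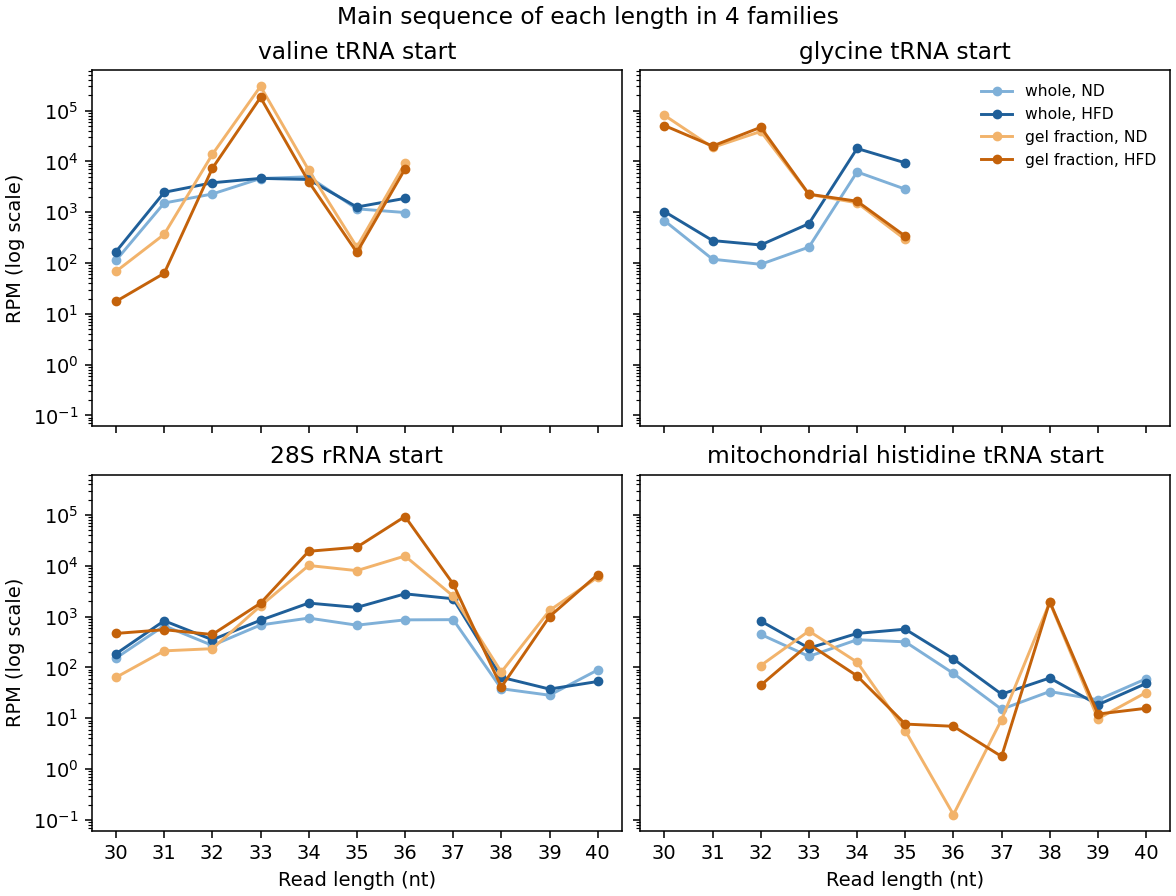
RPM (log scale) of the most abundant sequence at each length in 4 families, against read length in nt, with 1 line for each library. The gel fraction peaks at 33 nt for valine, at 30 and 32 nt for glycine, at 36 nt for 28S and at 38 nt for mitochondrial histidine, while whole sperm RNA peaks at 34 nt for glycine.

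Close copies of these families showed the same ends. A family that begins as the glycine one but with another letter at base 6 (G6T, counted from the 5′ end of the read, the more abundant family's base first) held the largest ratio of all printed sequences, the same 32-nt end.
Glycine, G6T, 32 nt: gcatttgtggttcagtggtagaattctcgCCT
Glycine, G6T, 34 nt: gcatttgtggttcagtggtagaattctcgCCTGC
Glycine, G6del, 31 nt: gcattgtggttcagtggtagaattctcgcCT
The 32-nt G6T sequence had 16.8, 42.2, 7109 and 9011 RPM in whole ND, whole HFD, gel ND and gel HFD (ratios 424 and 213, edgeR adjusted p = 3.15e-08). Its 34-nt end was lost, with 810, 2519, 157 and 240 RPM (ratios 0.193 and 0.0951, edgeR adjusted p = 0.0111, and 0.0614 without the ND gel library). The glycine sequence lacking 1 G, which ends at the same base, was enriched with 18.4, 50.6, 4735 and 5485 RPM (ratios 258 and 108, edgeR adjusted p = 4.12e-07). These copies ended at the same last base as the main sequences that moved in the same direction.

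Sequences of the same length were called in both directions at each length from 30 to 35 nt. Among the 63 sequences of 31 nt in all 4 libraries, 9 were enriched and 17 lost, and their gel over whole ratios reached 258 in ND and 108 in HFD, with medians of 0.575 and 0.385. Among the 51 of 33 nt, 10 were enriched and 11 lost, with ratios from 0.0156 to 65.1 in ND. The other lengths up to 35 nt held both directions too, with 7 enriched and 12 lost of 76 at 30 nt, 5 and 14 of 54 at 32 nt, 3 and 13 of 50 at 34 nt and 4 and 5 of 28 at 35 nt. At 36 nt, 7 of 24 were enriched and 0 lost. Shares of 14.2% enriched and 19.8% lost over all 373 are the values to read these counts against. Ratios also varied within families. The SD of the mean log2 ratio was 2.60 over the 373 sequences, and its median within the 14 families with at least 5 of them was 2.42. Of the 180 families among the 373 sequences, 5 held both an enriched and a lost sequence, which a family with a lone sequence cannot do. What set the direction was not tested.

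**Figure D3:**
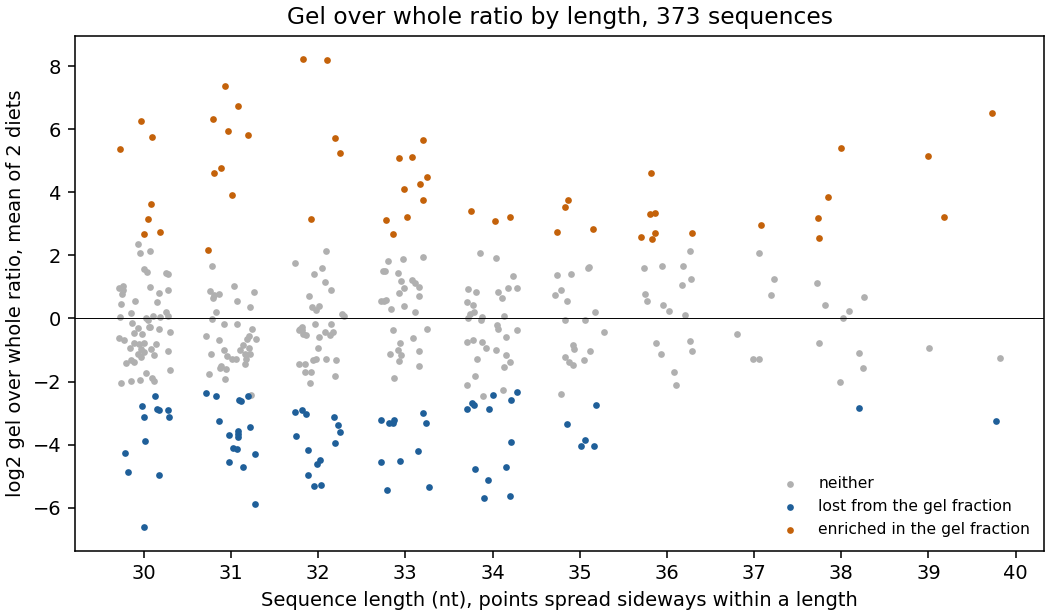
Each point is 1 of 373 sequences, with its length in nt on the x axis (spread sideways within a length) and the mean of its 2 log2 gel over whole ratios on the y axis. Enriched (orange) and lost (blue) sequences occur side by side from 30 to 35 nt.

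All 4 shares of the last base, and those of T and G at the first base, did not overlap between the preparations. In whole sperm RNA 25.4% (ND) and 31.7% (HFD) of reads ended in T, and in the gel fraction 56.4% and 55.2%. Reads ending in G made up 25.1% and 22.8% in whole sperm RNA and 6.91% and 9.79% in the gel fraction. At the other end, 54.6% and 68.2% of whole sperm reads began with T against 15.6% and 14.4% in the gel fraction, and 20.1% and 18.4% began with G against 64.5% and 48.5%. For each of these shares the exact two-sided permutation test over samples gave p = 0.33, the smallest that 2 against 2 can give. Shares of A and C at the first base overlapped, with A at 14.0% and 6.17% in whole ND and HFD and 9.31% and 12.1% in the gel fraction (exact two-sided permutation p = 1.00), and C at 11.3%, 7.26%, 10.6% and 25.1% (p = 0.667). The 10 most abundant sequences held 50.6% and 47.8% of the gel reads against 22.0% and 22.6% in whole sperm RNA, so single sequences weigh on these shares. Among the 373 sequences, each counted once, 21 of 53 enriched (39.6%), 23 of 74 lost (31.1%) and 88 of 246 uncalled ones (35.8%) ended in T. G was the first base of 37 of 53 enriched (69.8%), 34 of 74 lost (45.9%) and 62 of 246 uncalled ones (25.2%).

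The mean length of the reads differed by little, while single lengths differed by more. Reads of 33 nt made up 10.3% and 9.53% of whole ND and HFD and 36.9% and 25.3% of the gel fraction. Reads of 30 nt made up 22.5% and 29.5% of whole sperm RNA and 15.8% and 12.1% of the gel fraction. The mean length was 32.6 nt and 32.0 nt in whole ND and HFD and 33.0 nt and 33.5 nt in the gel fraction (exact two-sided permutation p = 0.33). Reads of 39 and 40 nt were scarce in whole sperm RNA, 0.221% and 0.178% at 39 nt and 0.0908% and 0.0863% at 40 nt, and stood at 2.10% and 2.00% and at 1.55% and 2.12% in the gel fraction. The gel piece also held reads outside the excised size, with 20.7% (ND) and 32.3% (HFD) of all its reads shorter than 30 nt and 3.25% and 3.84% longer than 40 nt.

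**Figure D4:**
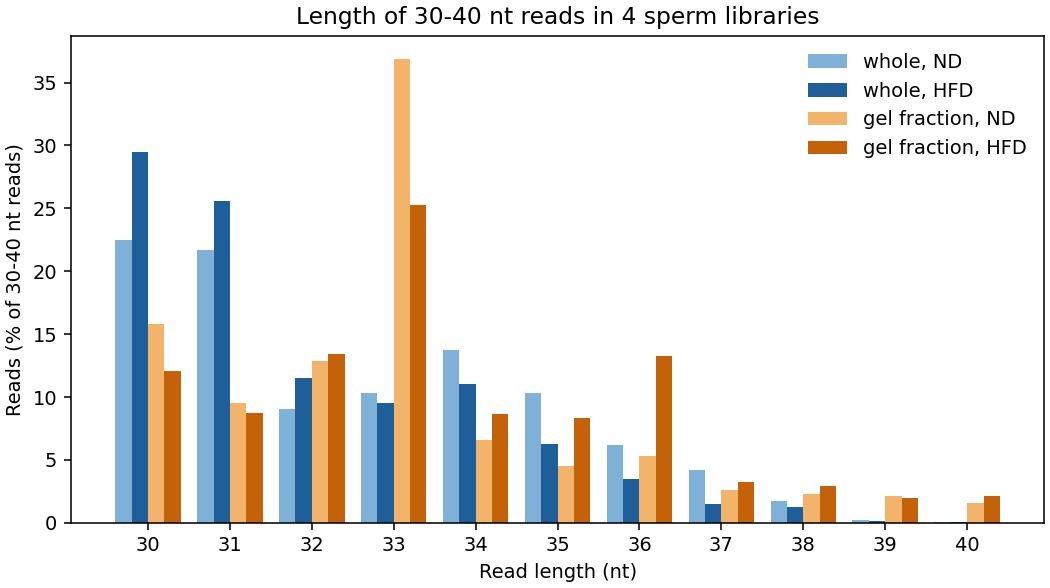
Share of 30-40 nt reads (%) at each read length in nt, with 1 bar for each of the 4 libraries. The gel fraction peaks at 33 nt (36.9% in ND and 25.3% in HFD), and whole sperm RNA at 30 nt (22.5% and 29.5%).

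Reads from the 3′ side of tRNAs, abundant in whole sperm RNA, were nearly absent from the gel fraction. The next are the main sequences of 3 of the 10 lost families with the largest ratios and 1 of the 10 lost sequences with the largest ratios, picked after their values were seen. Capitals mark the letters of the T arm where the search found them.
Lost family, 34 nt: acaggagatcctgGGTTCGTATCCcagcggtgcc
Lost family, as the lysine tRNA ends, 37 nt: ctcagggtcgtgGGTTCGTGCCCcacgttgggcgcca
Lost family, as the proline tRNA ends, 35 nt: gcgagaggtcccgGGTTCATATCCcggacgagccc
Lost sequence, as the tryptophan tRNA ends, 38 nt: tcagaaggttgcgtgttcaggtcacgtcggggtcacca
The first of these sequences had 13629 RPM in whole ND and 1799 in whole HFD and no read in either gel library, at least 35820-fold lower in ND and at least 4059-fold lower in HFD with 3 reads per gel library as the floor. The lysine sequence had 7015 and 218 RPM in whole ND and HFD and no gel read, at least 18437-fold and at least 491-fold lower. The proline family had 11623 and 594 RPM in whole ND and HFD and no gel read, at least 30549-fold and at least 1340-fold lower. These values differed widely between the diets in whole sperm RNA, and in each diet lay far above the level that 3 gel reads would give. The tryptophan sequence had 1289 and 1984 RPM and no gel read, at least 3387-fold and at least 4476-fold lower. They entered the test only through whole sperm RNA and had to differ, so these values are a description and no p is given. Each of the 10 lost families with the largest ratios had no read in either gel library, from 2582 to 75150 RPM in whole ND and from 587 to 12008 in whole HFD. Among the 4695 lost sequences, 3657 had no gel read. Each gel library held more 30-40 nt reads than either whole library.

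The marks of tRNA arms gave the same picture over all reads. The B box was searched as GGTTC, 1 free base, A, 2 free bases and CC, anywhere in the read and on its own strand only. It was found in 4.67% and 1.72% of reads of whole ND and HFD and in 0.268% and 0.220% of the gel fraction. With its seventh letter free it was found in 24.4%, 7.18%, 0.349% and 0.257% in whole ND, whole HFD, gel ND and gel HFD. The tail CCA closed 6.34%, 3.07%, 0.464% and 0.357% of reads. The preparations did not overlap for any of these shares (exact two-sided permutation p = 0.33 for each, the smallest possible). Gel minus whole, the B box share was -4.40 points in ND and -1.5 in HFD, its free form -24.1 and -6.92, and the share ending in CCA -5.88 and -2.71, so each was larger in the ND pair.

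The seventh letter of the B box also differed. In the tRNA it is an adenosine that is methylated in many tRNAs. Reads with the other 10 letters read it as A in 19.1% of 1223527 reads of whole ND (95% Clopper-Pearson interval 19.02 to 19.16) and 24.0% of 323198 reads of whole HFD (23.83 to 24.12). In the gel fraction it was A in 76.8% of 27494 reads (76.29 to 77.29, ND) and 85.5% of 17400 reads (84.93 to 85.98, HFD). Read as T it made up 53.1%, 49.2%, 14.0% and 11.4% in whole ND, whole HFD, gel ND and gel HFD. The few T-arm reads of the gel fraction thus mostly carried A, and those of whole sperm RNA mostly another letter.

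The A box, the mark of the 5′ side, was searched as TNG, 3 free bases, A, 2 or 3 free bases and GG, beginning at base 5 to 10 of the read. It was found in 37.5% and 42.4% of reads of whole ND and HFD and in 62.7% and 46.3% of the gel fraction (exact two-sided permutation p = 0.33). The gel fraction exceeded whole sperm RNA by 25.2 points in ND and by 3.91 points in HFD, so the size of this difference rests on the ND pair. The next sequences show those letters in capitals in 2 enriched reads and 2 lost ones.
Enriched, as the histidine tRNA begins, 31 nt: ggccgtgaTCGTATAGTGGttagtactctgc
Enriched, valine without its first base, 32 nt: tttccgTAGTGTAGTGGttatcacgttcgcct
Lost, as the cysteine tRNA begins, 33 nt: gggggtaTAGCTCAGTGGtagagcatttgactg
Lost, as the lysine tRNA begins, 33 nt: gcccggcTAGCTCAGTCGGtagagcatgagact
Reads with the A box thus came in both directions. The histidine sequence had 23.0, 25.5, 1637 and 1161 RPM in whole ND, whole HFD, gel ND and gel HFD (ratios 71.3 and 45.4, edgeR adjusted p = 2.44e-05). The valine sequence without its first base had 45.7, 48.2, 3361 and 1843 (ratios 73.5 and 38.2, edgeR adjusted p = 2.04e-05). The cysteine sequence had 7562, 4979, 421 and 260 (ratios 0.0557 and 0.0522, edgeR adjusted p = 6.38e-04). The lysine one had 3897, 2686, 416 and 295 (ratios 0.107 and 0.110, edgeR adjusted p = 0.00715). The lysine end 1 base longer, at 34 nt, was not called, with 390, 228, 694 and 481 (ratios 1.78 and 2.11, edgeR adjusted p = 0.424). That end held 5.23% and 4.99% of its family in whole ND and HFD and 48.2% and 46.3% in the gel fraction. Of 170 sequences with the A box in all 4 libraries, 24 were enriched (14.1%) and 48 lost (28.2%), beside 14.2% and 19.8% over all 373, with a median log2 ratio of -0.29 in ND and -1.24 in HFD, beside medians of 0.08 and -0.89 over all.

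Reads that begin with T and hold neither box have the start that is typical of piRNAs, the small RNAs that silence transposons in the male germ line. The class was not limited to piRNAs. The lost sequence above that ends as the tryptophan tRNA does begins with T, was found by neither box search, and so belongs to it. Reads of this class made up 24.9% and 36.7% of whole ND and HFD and 9.53% and 8.98% of the gel fraction (exact two-sided permutation p = 0.33). Of the 73 such sequences in all 4 libraries, 2 were enriched (2.74%), 13 were lost (17.8%) and 58 were neither, so their share of lost calls was near the 19.8% over all 373. Reads with no mark at all made up 12.4% and 13.4% of whole sperm RNA and 27.2% and 44.3% of the gel fraction, a class to which the 28S reads belong. Of 127 sequences with no mark in all 4 libraries, 27 were enriched (21.3%) and 12 lost (9.45%), beside 14.2% and 19.8% over all 373.

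**Figure D5:**
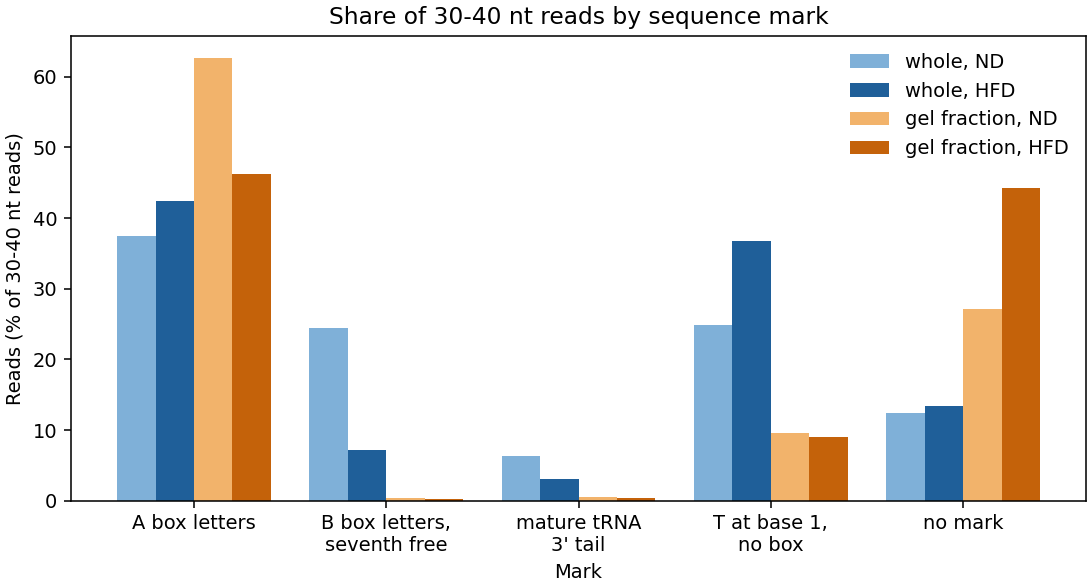
Share of 30-40 nt reads (%) by sequence mark, with 1 bar for each of the 4 libraries; a read that ends in CCA can also hold a box. Both gel libraries lie above both whole libraries for the A box letters and for no mark, and below them for the B box letters, the mature tRNA tail and T at base 1.

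Summed over ends, 5889 families reached 10 RPM in at least 2 libraries, 1435 of them enriched (24.4%) and 3639 lost (61.8%). Most had entered the test through whole or gel RNA alone, 3829 through both whole libraries and 1488 through both gel libraries. Such families had to differ, so these totals are given as a description only. Among the 490 families with at least 10 RPM in all 4 libraries, 52 were enriched (10.6%) and 86 lost (17.6%). Leaving out whole ND or whole HFD again left 0 families, with lowest edgeR adjusted p of 0.107 and 0.0890 and 2606 and 2295 families at an unadjusted p under 0.05. The family with the largest mean ratio among the printed ones was the histidine one, with 28 and 31.5 RPM in whole ND and HFD and 4554 and 3895 in the gel fraction (ratios 163 and 123, edgeR adjusted p = 4.85e-08).

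Among the families described here with at least 1000 RPM in all 4 libraries, those of valine, glycine, the glycine copy G6T and 28S were enriched, and those of cysteine and lysine were lost. The G6del glycine family was not called, with 1151, 3452, 6986 and 7860 RPM in whole ND, whole HFD, gel ND and gel HFD (ratios 6.07 and 2.28, edgeR adjusted p = 0.0860). The 28S family missed the threshold with median of ratios factors (edgeR adjusted p = 0.0551). The cysteine family had 23320, 16182, 1898 and 1100 RPM in whole ND, whole HFD, gel ND and gel HFD (ratios 0.0814 and 0.0680, edgeR adjusted p = 1.95e-04). The lysine family had 7464, 4580, 1440 and 1040 (ratios 0.193 and 0.227, edgeR adjusted p = 0.0255), a call that ended with TMM factors (adjusted p = 0.0660), with all reads as library size (adjusted p = 0.110) and without the HFD gel library (adjusted p = 0.0841). With no filter beyond a read in 2 libraries, none of these 6 family calls remained.

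A family that begins with a G before the letters of the mitochondrial histidine tRNA was not called as a sum, yet its ends went both ways.
Mitochondrial histidine, 32 nt: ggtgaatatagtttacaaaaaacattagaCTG
Mitochondrial histidine, 38 nt: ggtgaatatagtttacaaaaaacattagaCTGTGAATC
Its sum was close to equal, with 1852 and 2948 RPM in whole ND and HFD and 3220 and 2761 in the gel fraction (ratios 1.74 and 0.936, edgeR adjusted p = 0.758). The 38-nt end was enriched, with 33.6, 62.0, 1917 and 1980 RPM in whole ND, whole HFD, gel ND and gel HFD (ratios 57.1 and 32.0, edgeR adjusted p = 6.71e-05). The 32-nt end was lost, with 447, 819, 109 and 44.6 (ratios 0.243 and 0.0545, edgeR adjusted p = 0.0136), though not with all reads as library size (adjusted p = 0.0656) or without the HFD gel library (adjusted p = 0.0779). The 38-nt end held 1.81% and 2.10% of the family in whole sperm RNA and 59.5% and 71.7% in the gel fraction. The 35-nt end was lost too (ratios 0.0179 and 0.0136, edgeR adjusted p = 2.51e-05). So was the 36-nt end, though not with TMM factors (edgeR adjusted p = 0.0709). At 37, 39 and 40 nt none was called, and the gel fraction lay below whole sperm RNA in both diets. The ratios were 0.425 and 0.657 at 39 nt and 0.537 and 0.323 at 40 nt. The 38-nt end was thus enriched alone, and not the long ends as a group.

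Single letters within the first 15 bases of a family kept to its main form in different proportions. In the glycine family the form lacking 1 G (G6del) stood at 11% and 11.4% of the main family in whole ND and HFD and at 4.82% and 6.33% in the gel fraction. The change G9C stood at 0.473%, 0.448%, 0.172% and 0.0687%. Both were thus a larger share of the family in whole sperm RNA than in the gel fraction. In the valine family the change C5T stood at 0.0749% and 0.0927% of the main family in whole ND and HFD and at 0.236% and 0.234% in the gel fraction. The change G1T stood at 0.0546%, 0.0654%, 0.230% and 0.231%. These 2 lay the other way around, as did G7C and G10T. The valine changes G7A, G7T, A9G and G10A were again a larger share in whole sperm RNA. G7A, the most abundant of them, stood at 1.53%, 1.64%, 1.09% and 1.12%. G6T of the glycine family stood at 13.6%, 14.6%, 11.9% and 14.0% and overlapped. These proportions are descriptions without a test.

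Much of the gel fraction was made of sequences that whole sperm RNA also held, in other amounts. Of the gel reads, 77.6% in ND (95% Clopper-Pearson interval 77.59 to 77.64) and 67.7% in HFD (67.65 to 67.72) lay in sequences with a read in whole sperm RNA of the same diet. In the other direction 40.0% of whole ND reads (39.94 to 40.02) and 46.7% of whole HFD reads (46.65 to 46.74) lay in sequences with a read in the gel fraction of the same diet. Taking the smaller of both shares for each sequence and adding them up, the preparations held 9.41% of reads in common in ND and 10.3% in HFD. Between diets the gel libraries held 57.7% in common and the whole libraries 63.1%. The libraries of 1 preparation in different diets were therefore nearer to each other than the preparations of 1 diet.

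The sequences called enriched held 70.1% (ND) and 66.6% (HFD) of gel reads and 1.22% and 1.93% of whole reads. Those called lost held 63.3% and 52.2% of whole reads and 1.53% and 1.27% of gel reads. Both sets were chosen by these same counts, so the shares describe how much of each library the calls cover. Nearest to the limit on the enriched side, the 30-nt sequence gataacgaacgagactctggcatgctaact had 18.0, 47.1, 359 and 96.2 RPM in whole ND, whole HFD, gel ND and gel HFD (ratios 20 and 2.04). On the lost side it was the 34-nt sequence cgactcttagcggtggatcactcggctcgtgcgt, which begins as the 5.8S rRNA does, with 583, 177, 54.2 and 74.9 (ratios 0.0929 and 0.424). Reads of 30-40 nt inside a microRNA hairpin, longer than a mature microRNA, were few, with 1065, 1749, 186 and 80.7 RPM in whole ND, whole HFD, gel ND and gel HFD by exact match to 1005 RefSeq hairpins.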

How the data were processed

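Small RNA was measured in 4 libraries of mature mouse sperm, 1 of whole RNA and 1 of a gel-cut 30-40 nt fraction for each of 2 diets, prepared with a TruSeq small RNA kit per the labels' protocols. The authors deposited, for each library, a read count for every distinct sequence with its length; trimming and other steps before that are not given in the sources used here, and no molecular identifier was recorded. The members and lists were chosen with earlier results of these data known.

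From the counts, sequences of 30 to 40 nt were taken, and the total of their reads served as library size (4501619 to 7884746) and as the base of RPM, reads per 1000000 such reads. Sequences, and families sharing 15 bases, with at least 10 RPM in 2 of 4 libraries were tested with edgeR 4.0.16 in R 4.3.3 (quasi-likelihood, no normalization factors), with Benjamini-Hochberg adjustment over all sequences or families tested. SE is the log2 difference over the square root of F. Ratios within a diet set counts under 3 to 3 reads. The test of sequences was run on simulated counts with known changes. These were drawn with fewer changes and less spread between replicates than the real counts show, so that run does not tell the error rate of the calls here. The 2 libraries of each preparation come from males on different diets, so p-values measure a spread that includes diet and may be technical in part. The labels do not say whether the gel and whole libraries of a diet come from separate animals. The main test did not pair them.

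Shares carry exact 95% Clopper-Pearson intervals where printed (scipy 1.17.1). These cover the error of counting reads, and not PCR copies or the spread between libraries. Named were the 10 most abundant sequences of each preparation, the 10 largest calls in each direction (at most 2 a family), the nearest on each side of the limit, and the ends of families of at least 1000 RPM. Letters are printed only for at least 10 RPM in both whole libraries. That rule passed over 1 of the 10 most abundant gel sequences, 584 enriched sequences and 1086 enriched families before each list of 10 was filled, and 5 of the 10 enriched families kept values without letters. Some families within the naming rule are left out of the text. The planned match of printed sequences to a mouse reference was dropped, since only microRNA hairpins were available to match. The sequences printed come from the deposited tables, and no positions in the genome are given. The B box with its seventh letter free, 1 of the 5 sites of 16S rRNA, the ends by length and the letter changes were added after the data were seen. DESeq2 1.42.0, other scalings, filters, a diet block and each library left out were tried as alternatives.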

Additional observations from a re-analysis of the deposited data

Results flagged for a closer look

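The family of the mitochondrial histidine tRNA start, ggtgaatatagttta, was flagged because its direction differed between the diets. Its gel over whole ratio was 1.74 in ND and 0.936 in HFD. This was not particular to it. Of the 490 families with at least 10 RPM in all 4 libraries, 372 (75.9%) had the same sign in both diets. Their median log2 ratio was 0.38 in ND and -0.71 in HFD. With 1 library of each preparation in each diet, the difference between the diets in the flagged family was not tested.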

How the results depend on the processing

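The counts of enriched and lost calls, first of sequences and then of families, were 1678, 4695, 1435 and 3639, and each stayed within 1.5 times under TMM factors, median of ratios factors, all reads as library size and DESeq2. They were 68, 99, 78 and 124 when tested only at 10 RPM in all 4 libraries, 6686, 41389, 4642 and 27265 without a filter beyond a read in 2 libraries, and 53, 74, 52 and 86 as calls among members at 10 RPM in all 4 libraries, a setting added with the data in view. With only sequences read in both whole libraries, 866 sequences and 344 families were enriched, and the lost ones stayed within 1.5 times. Leaving out 1 library gave 0 to 1742, 0 to 4797, 0 to 1533 and 0 to 3842, each 0 without whole ND or whole HFD. With diet as a block, the counts were 1361, 4141, 1089 and 3034, and 39 enriched and 61 lost of the 373 sequences. By the labels, the libraries of a block share only a diet, and the diet differences in whole and gel RNA had a Pearson r of 0.18 over the 373 sequences. Of the 373, TMM factors called 67 enriched and 81 lost, all reads as library size 64 and 56, median of ratios factors 44 and 158, and DESeq2 56 and 179, beside 53 and 74. DESeq2 changes both the test and the scaling. With no filter beyond a read in 2 libraries, 0 of the 18 enriched and 6 of the 22 lost ends by length in the largest families kept their call.

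Gel minus whole, the A box share was 14.5 points, with 4.45 counting unique sequences once and 29.9 over sequences read in both whole libraries. The B box share was -2.95 points, with -0.770 over unique sequences, -1.46 over all lengths and -15.5 with the seventh letter free. The share ending in CCA was -4.30 points (-1.78 over unique sequences), and mean length 0.966 nt (2.03 over unique sequences, 1.64 at 28-44 nt). Leaving out 1 library gave 6.36 to 22.7, -4.42 to -1.48, -5.93 to -2.66 and 0.649 to 1.28 for these 4. The alternative limited to sequences that match a mouse reference was not run. The cause of these changes was not tested, apart from fewer sequences or libraries where the setting removes them. Depth limits the lost sequences to the bounds that 3 reads allow.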
